A study of Homo sapiens with 24 samples.

Results

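Proteasome subunit genes were examined in 24 RNA-seq libraries of 2 metastatic clear cell renal cell carcinoma (ccRCC) lines, 786-M1A and OS-LM1. The members were all genes whose symbol is PSM, a letter from A to G and a number, 48 of the 26475 genes in the files. They were divided into 5 immunoproteasome genes (PSMB8, PSMB9, PSMB10, PSME1 and PSME2) and 43 others, called constitutive here although they include assembly chaperones, other activators and the inhibitor PSMF1. Of these, 46 passed a filter on low counts, 41 constitutive genes and all 5 immunoproteasome genes. PSMA8, the testis form of an alpha subunit, had no count in any library, and PSMB11, the thymus form of a catalytic subunit, had counts in 1 library only.

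In each line, 4 libraries carried sgNTC18, a non-targeting guide RNA, 4 carried shPAX8-1 and 4 carried shPAX8-2, which are RNAi constructs against the renal lineage transcription factor PAX8. All cells were grown in RPMI with 10% FBS, and 786-M1A and OS-LM1 are metastatic derivatives of the established ccRCC lines 786-O and OS-RC2. The study's methods describe doxycycline-inducible shRNA plasmids. The control here carries a guide RNA, so the kind of construct and the loss of PAX8 cannot be told apart in any comparison against sgNTC18. The labels do not say whether replicates came from separate cultures, so p-values measure only the spread between these libraries.

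The proteasome degrades proteins marked with ubiquitin. Its 20S core is a barrel of alpha and beta rings, in which PSMB5, PSMB6 and PSMB7 carry the active sites, and the 19S particle binds and unfolds the substrate and feeds it in. In cells exposed to interferon, PSMB8, PSMB9 and PSMB10 take the places of PSMB5, PSMB6 and PSMB7, respectively, to form the immunoproteasome, which yields peptides suited to MHC class I. PSME1 and PSME2 form the PA28 cap that opens the core.

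Because these 5 genes are known interferon targets, their promoters are shown first, from 150 bases before the transcription start to the 20th base of the transcript, 5′ to 3′ on the strand of the gene. The sequences are from RefSeq, build GRCh38.p14, at chr6:32844660-32844829 on the minus strand for PSMB8, chr6:32854042-32854211 on the plus strand for PSMB9, chr16:67936831-67937000 on the minus strand for PSMB10, chr14:24136044-24136213 on the plus strand for PSME1 and chr14:24146591-24146760 on the minus strand for PSME2. Capitals mark the core of the interferon-stimulated response element, GAAA, 2 bases of any kind and GAAA, on either strand.
PSMB8: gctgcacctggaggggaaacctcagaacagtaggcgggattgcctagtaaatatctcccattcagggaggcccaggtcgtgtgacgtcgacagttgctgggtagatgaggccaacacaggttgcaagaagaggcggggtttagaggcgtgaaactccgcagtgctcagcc
PSMB9: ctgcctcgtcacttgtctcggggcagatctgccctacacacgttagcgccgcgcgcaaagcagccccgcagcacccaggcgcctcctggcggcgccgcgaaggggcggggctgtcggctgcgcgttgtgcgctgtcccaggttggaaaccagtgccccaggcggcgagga
PSMB10: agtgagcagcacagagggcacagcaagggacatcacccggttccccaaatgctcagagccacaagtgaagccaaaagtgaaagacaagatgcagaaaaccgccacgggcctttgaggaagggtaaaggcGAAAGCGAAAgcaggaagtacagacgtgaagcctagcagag
PSME1: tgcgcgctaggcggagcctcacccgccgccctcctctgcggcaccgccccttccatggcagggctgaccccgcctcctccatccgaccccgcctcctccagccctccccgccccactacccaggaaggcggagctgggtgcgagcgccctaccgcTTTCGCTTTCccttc
PSME2: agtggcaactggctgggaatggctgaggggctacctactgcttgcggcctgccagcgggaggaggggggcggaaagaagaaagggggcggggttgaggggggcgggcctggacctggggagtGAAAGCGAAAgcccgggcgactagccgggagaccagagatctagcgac
The core lay from -21 to -12 in PSMB10, from -28 to -19 in PSME2 and, on the opposite strand, from 6 to 15 in PSME1 (the start counted as 1), and these letters were not in the windows of PSMB8 and PSMB9. Promoters of 300 bases (250 before the start and 50 from it) could be matched for 42 of the 48 genes. In these, the core was in 3 of the 5 immunoproteasome genes and in 3 of 37 constitutive genes (PSMB4, PSMG4 and PSMA4), against 3.65% of all 27305 promoters in the table. The gamma-activated site TTCNNNGAA was in 0 of the 5 and in 5 of the 37, against 7.88%. The antioxidant response element core TGACNNNGC was in 3 of the 5 and in 10 of the 37, against 13.6%, and the CCAAT box in 1 of the 5 and in 18 of the 37, against 35.7%. All motifs were searched on both strands without regard to overlap between them. The motif in capitals and the CCAAT box were chosen after their matches had been seen, further motifs were searched and are not given, and the matches are a description only. The starts of PSMB9 and of TAP1, a subunit of the peptide transporter for MHC class I, lay 488 bases apart on opposite strands.

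On GRCh38, PSMB8 lies at 32840717 to 32844679 and PSMB9 at 32854192 to 32859851 on chromosome 6, PSMB10 at 67934506 to 67936850 on chromosome 16, and PSME1 at 24136194 to 24138962 and PSME2 at 24143365 to 24146610 on chromosome 14. Of the genes they replace, PSMB5 lies at 23025851 to 23035220 on chromosome 14, PSMB6 at 4796164 to 4798495 on chromosome 17 and PSMB7 at 124353465 to 124415442 on chromosome 9. Counts were taken per gene, over all its transcripts.

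Libraries held 11.6 to 52.1 × 1e6 expected counts. Levels are given as CPM, counts scaled by library size with TMM factors, and levels are compared between genes as TPM, which also corrects for transcript length. The 4 libraries of 786-M1A with shPAX8-1 fell into libraries 1 and 2 and libraries 3 and 4: the chi-square per gene was 14.16 and 3.74 within these pairs and 45.0 to 77.8 across them. Those of 786-M1A with shPAX8-2 fell into the same pairs, less far apart, at 3.97 and 11.74 within and 15.0 to 19.33 across them. Outside 786-M1A with shPAX8-1 it ran from 3.97 to 89.87, the highest between libraries 3 and 4 of OS-LM1 with shPAX8-2. Only pairs of 786-M1A shPAX8-1 libraries were left out together. Counts of constitutive genes called and log2 fold changes of the immunoproteasome genes that rest on 786-M1A with shPAX8-1 are also given without either pair of that group, and those of other genes where the call or the value moved by more than 1.5 times. Counts of genes called with libraries left out or under other processing stand without the share of all genes called in the same setting. They are a description only. Of 9 listed renal and ccRCC markers, 7 to 9 had a mean of at least 1 CPM in each group, but CA9, a hypoxia-induced carbonic anhydrase, was at 0 in 786-M1A with sgNTC18 and at most 0.162 CPM in the other 786-M1A libraries. The leukocyte markers CD3E and PTPRC were at 0 and at most 0.317 CPM in every library, but the 6 listed leukocyte markers, 3 of them with a mean of at least 1 CPM in each group, summed to 192 to 225 CPM with sgNTC18 and 209 to 415 CPM with shPAX8 in 786-M1A and to 259 to 320 and 319 to 461 CPM in OS-LM1. The 4 fibroblast markers summed to 3.53 to 5.34 CPM with sgNTC18 and 11.0 to 15.9 CPM with shPAX8 in 786-M1A and to 14.9 to 19.8 and 104 to 209 CPM in OS-LM1. Their part in the results was not tested. In bulk samples, fewer cells of a type and less RNA per cell cannot be told apart.

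PAX8 was depleted in every shPAX8 library. It was at 292, 393, 360 and 319 CPM in 786-M1A with sgNTC18, at 22.9, 21.9, 15.2 and 14.8 CPM with shPAX8-1 and at 41.4, 45.5, 42.6 and 40.0 CPM with shPAX8-2. In OS-LM1 PAX8 was at 262, 279, 245 and 254 CPM with sgNTC18, at 85.6, 78.4, 59.8 and 89.2 CPM with shPAX8-1 and at 76.2, 63.8, 97.0 and 79.9 CPM with shPAX8-2. Within a line the shPAX8 and sgNTC18 libraries did not overlap. The log2 fold change against sgNTC18 was -4.16 (0.16) with shPAX8-1 and -2.99 (0.15) with shPAX8-2 in 786-M1A, and -1.76 (0.12) and -1.71 (0.12) in OS-LM1 (standard errors in brackets, here and below).

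Proteasome genes stood at unequal levels in cells with sgNTC18. The 14 constitutive 20S core genes ran from 34.0 ± 6.03 TPM for PSMA4 to 645 ± 17.7 TPM for PSMA7 in 786-M1A (mean ± SD, n = 4, here and below), both alpha ring subunits. In OS-LM1 they ran from 54.3 ± 4.71 TPM for PSMA4 to 552 ± 34.1 TPM for PSMB3, a beta ring subunit without an active site. Among the 6 ATPases of the 19S base, which unfold the substrate, PSMC6 was lowest in both lines, at 18.6 ± 2.88 and 32.6 ± 3.50 TPM. Members took 0.625% ± 0.022 of all counts in 786-M1A and 0.658% ± 0.027 in OS-LM1 with sgNTC18, and the ranges of the 2 lines overlapped. With shPAX8-1 and shPAX8-2 the share was 0.359% ± 0.019 and 0.300% ± 0.028 in 786-M1A and 0.557% ± 0.010 and 0.507% ± 0.026 in OS-LM1, below every sgNTC18 library of the line.

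The immunoproteasome catalytic genes fell in each of the 4 comparisons of shPAX8 with sgNTC18. PSMB8, which replaces PSMB5, was at 99.9, 103, 101 and 101 CPM in 786-M1A with sgNTC18, at 30.4, 29.0, 21.5 and 21.3 CPM with shPAX8-1 and at 30.6, 30.5, 30.6 and 37.9 CPM with shPAX8-2. In OS-LM1 it was at 44.8, 43.4, 44.6 and 47.5 CPM with sgNTC18, at 21.9, 28.2, 24.4 and 26.6 CPM with shPAX8-1 and at 25.9, 21.7, 28.2 and 22.9 CPM with shPAX8-2. All 16 shPAX8 libraries lay below all 8 sgNTC18 libraries, whichever the line. The log2 fold changes of PSMB8 were -1.96 (0.13, edgeR adjusted p = 5.9e-09) and -1.62 (0.13, edgeR adjusted p = 7.0e-08) in 786-M1A with shPAX8-1 and shPAX8-2, and -0.86 (0.10, edgeR adjusted p = 3.6e-07) and -0.86 (0.10, edgeR adjusted p = 4.2e-07) in OS-LM1.

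PSMB9, which replaces PSMB6, was at 55.9, 57.6, 56.2 and 55.1 CPM in 786-M1A with sgNTC18, at 10.9, 10.1, 9.87 and 9.61 CPM with shPAX8-1 and at 11.0, 10.7, 13.2 and 17.9 CPM with shPAX8-2. Its libraries in OS-LM1 were at 21.4, 19.2, 21.3 and 18.8 CPM with sgNTC18, at 7.58, 8.31, 8.63 and 7.89 CPM with shPAX8-1 and at 6.51, 6.69, 6.82 and 7.56 CPM with shPAX8-2. Each line's shPAX8 libraries lay below its sgNTC18 libraries. The log2 fold changes were -2.45 (0.15, edgeR adjusted p = 2.1e-09) and -2.08 (0.14, edgeR adjusted p = 1.9e-08) in 786-M1A and -1.34 (0.10, edgeR adjusted p = 8.1e-10) and -1.54 (0.10, edgeR adjusted p = 1.6e-10) in OS-LM1.

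PSMB10, which replaces PSMB7, was at 49.1, 71.9, 59.4 and 62.7 CPM in 786-M1A with sgNTC18, at 13.5, 14.2, 9.03 and 9.83 CPM with shPAX8-1 and at 12.9, 14.4, 11.1 and 15.3 CPM with shPAX8-2. The OS-LM1 libraries were at 27.0, 20.1, 27.1 and 22.4 CPM with sgNTC18, at 6.80, 7.30, 6.26 and 6.45 CPM with shPAX8-1 and at 6.58, 6.27, 8.74 and 6.05 CPM with shPAX8-2. Again shPAX8 and sgNTC18 libraries did not overlap within a line. The log2 fold changes were -2.36 (0.17, edgeR adjusted p = 1.2e-08) and -2.16 (0.17, edgeR adjusted p = 5.8e-08) in 786-M1A and -1.87 (0.13, edgeR adjusted p = 2.2e-10) and -1.78 (0.13, edgeR adjusted p = 5.1e-10) in OS-LM1.

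Both PA28 genes fell as well. PSME1, the alpha subunit of the cap, was at 320, 321, 334 and 351 CPM in 786-M1A with sgNTC18, at 163, 152, 147 and 159 CPM with shPAX8-1 and at 159, 151, 154 and 176 CPM with shPAX8-2, and in OS-LM1 at 339, 309, 356 and 335 CPM with sgNTC18, at 244, 229, 192 and 248 CPM with shPAX8-1 and at 190, 206, 201 and 241 CPM with shPAX8-2. Each line's shPAX8 libraries lay below its sgNTC18 libraries. Its log2 fold changes were -1.07 (0.08, edgeR adjusted p = 2.8e-08) and -1.03 (0.08, edgeR adjusted p = 8.3e-08) in 786-M1A and -0.58 (0.09, edgeR adjusted p = 1.6e-05) and -0.67 (0.09, edgeR adjusted p = 3.0e-06) in OS-LM1. PSME2, the beta subunit, was at 185, 177, 191 and 200 CPM in 786-M1A with sgNTC18, at 46.3, 53.6, 62.6 and 66.7 CPM with shPAX8-1 and at 35.5, 36.9, 43.3 and 53.7 CPM with shPAX8-2, and in OS-LM1 at 174, 182, 200 and 177 CPM with sgNTC18, at 123, 116, 119 and 124 CPM with shPAX8-1 and at 89.8, 98.0, 90.6 and 111 CPM with shPAX8-2. The groups were again apart within each line. Log2 fold changes of PSME2 were -1.70 (0.14, edgeR adjusted p = 5.5e-08) and -2.13 (0.14, edgeR adjusted p = 1.3e-08) in 786-M1A and -0.63 (0.08, edgeR adjusted p = 1.5e-06) and -0.91 (0.08, edgeR adjusted p = 1.5e-08) in OS-LM1.

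All 5 genes were also called lower with shPAX8-1 in 786-M1A when either pair of libraries was left out. The log2 fold change without libraries 1 and 2, or 3 and 4, was -2.229 or -1.774 for PSMB8, -2.513 or -2.428 for PSMB9, -2.67 or -2.138 for PSMB10, -1.101 or -1.082 for PSME1 and -1.528 or -1.919 for PSME2. In OS-LM1 the fall of PSME1 and PSMB8 moved by more than 1.5 times when GC or length trends were removed. PSME1 was at -0.378 with shPAX8-1 once the GC trend was removed and at -0.341 and -0.344 with shPAX8-1 and shPAX8-2 once both trends were, and PSMB8 at -0.51 with shPAX8-2 once both were, all still called. Other falls moved by less, in both lines. Over all alternatives PSMB10 ran from -1.93 to -1.40 and from -1.94 to -1.34 with shPAX8-1 and shPAX8-2 in OS-LM1. PSMB8 ran from -0.93 to -0.58 with shPAX8-1 there. In 786-M1A with shPAX8-1, PSMB10 ran from -2.67 to -1.76 and PSME1 from -1.15 to -0.79. All of these stayed called.

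The constitutive catalytic genes fell in 786-M1A, and PSMB5 and PSMB6 also in OS-LM1. PSMB5, the chymotrypsin-like subunit, was at 56.5, 61.3, 60.2 and 59.7 CPM in 786-M1A with sgNTC18, at 33.4, 33.7, 29.1 and 31.1 CPM with shPAX8-1 and at 36.6, 35.3, 34.8 and 41.5 CPM with shPAX8-2, and in OS-LM1 at 76.0, 63.9, 69.0 and 70.5 CPM with sgNTC18, at 34.4, 47.5, 43.4 and 33.7 CPM with shPAX8-1 and at 46.2, 47.5, 47.4 and 49.4 CPM with shPAX8-2. Its shPAX8 libraries lay below the sgNTC18 libraries in both lines. The log2 fold changes were -0.88 (0.10, edgeR adjusted p = 1.0e-06) and -0.66 (0.10, edgeR adjusted p = 2.9e-05) in 786-M1A and -0.84 (0.10, edgeR adjusted p = 6.7e-07) and -0.55 (0.10, edgeR adjusted p = 1.2e-04) in OS-LM1. The last of these was -0.24 and not called once GC and length trends were removed, with adjusted p from 1.5e-06 to 0.054 over the alternatives.

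PSMB6, the caspase-like subunit, was at 60.1, 60.0, 60.6 and 64.0 CPM in 786-M1A with sgNTC18, at 16.9, 25.7, 17.8 and 19.9 CPM with shPAX8-1 and at 16.8, 19, 19.8 and 25.3 CPM with shPAX8-2, and in OS-LM1 at 78.5, 71.5, 75.8 and 77.4 CPM with sgNTC18, at 40.4, 35.6, 45.2 and 43.2 CPM with shPAX8-1 and at 36.3, 38.6, 39.1 and 36.3 CPM with shPAX8-2. Neither line showed overlap. Its log2 fold changes were -1.58 (0.15, edgeR adjusted p = 1.8e-07) and -1.58 (0.15, edgeR adjusted p = 3.5e-07) in 786-M1A and -0.91 (0.09, edgeR adjusted p = 1.7e-08) and -1.01 (0.09, edgeR adjusted p = 5.0e-09) in OS-LM1, the last of these -0.67 with GC and length trends removed. PSMB7, the trypsin-like subunit, was at 280, 242, 257 and 254 CPM in 786-M1A with sgNTC18, at 120, 125, 120 and 135 CPM with shPAX8-1 and at 102, 99.9, 108 and 131 CPM with shPAX8-2, and in OS-LM1 at 169, 144, 167 and 161 CPM with sgNTC18, at 143, 159, 157 and 143 CPM with shPAX8-1 and at 152, 144, 140 and 146 CPM with shPAX8-2. The OS-LM1 groups overlapped, whereas those of 786-M1A did not. The log2 fold changes of PSMB7 were -1.03 (0.10, edgeR adjusted p = 2.9e-07) and -1.21 (0.10, edgeR adjusted p = 1.0e-07) in 786-M1A, and -0.12 (0.08, edgeR adjusted p = 0.18) and -0.14 (0.08, edgeR adjusted p = 0.12) in OS-LM1, where neither passed.

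**Figure D1:**
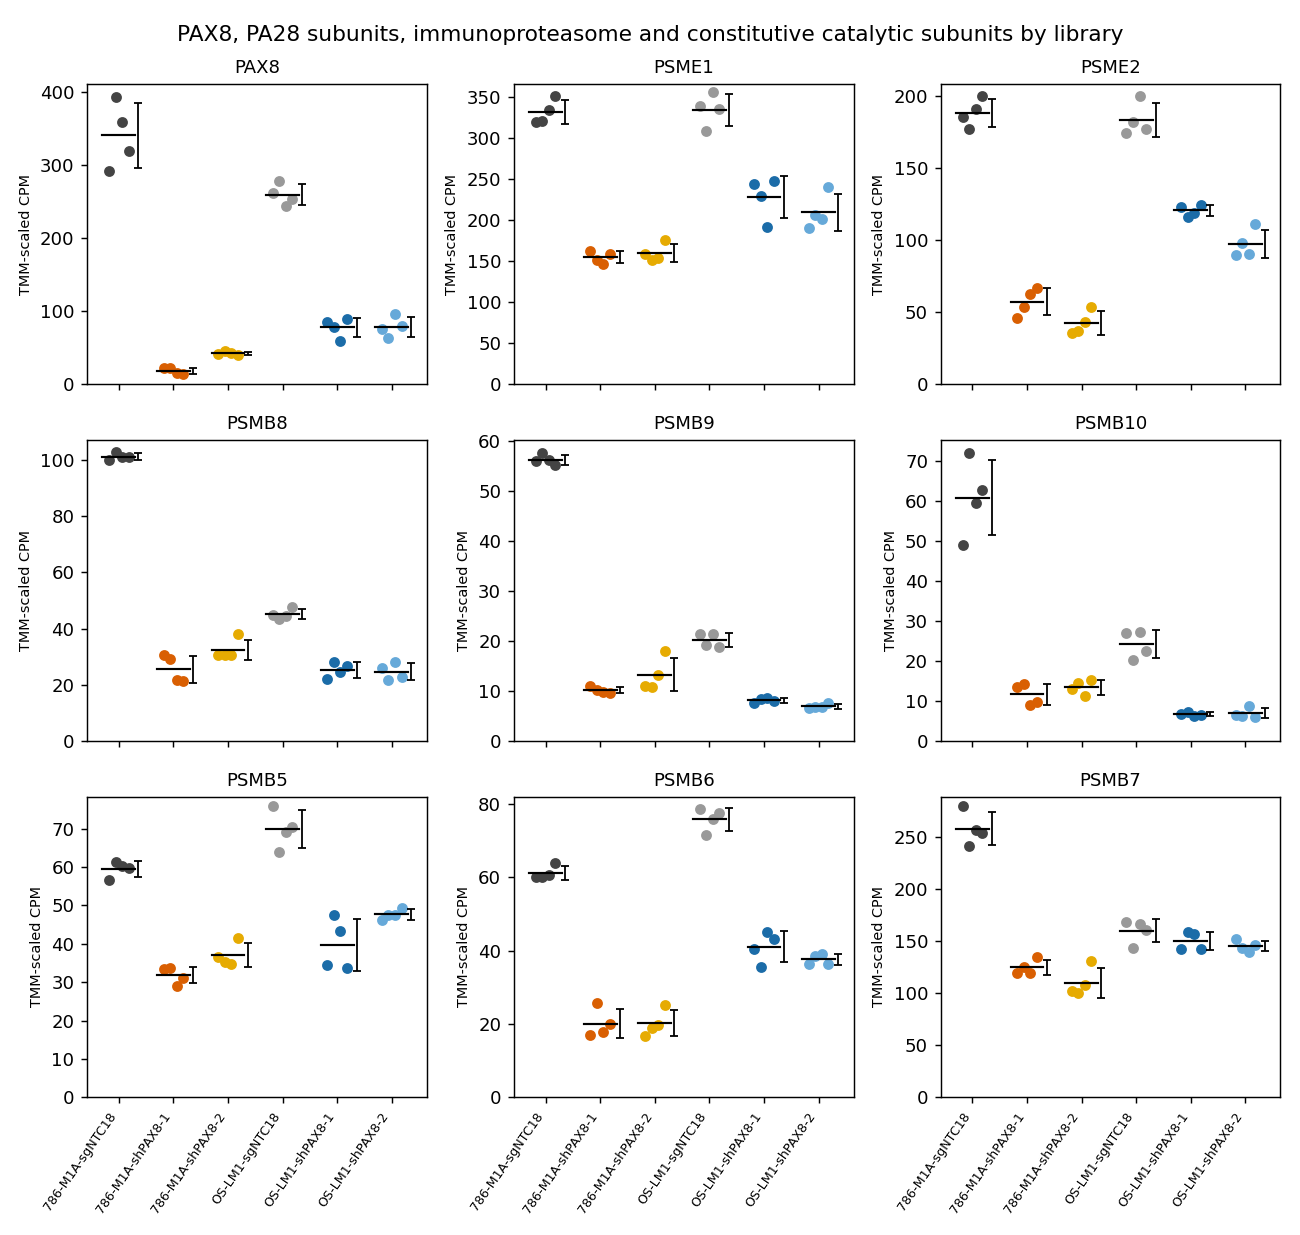
TMM-scaled CPM of PAX8, the PA28 genes and the immunoproteasome and constitutive catalytic genes in each of the 24 libraries, by line and construct, on linear axes from 0; points are libraries, horizontal lines group means and bars SD (n = 4). PSMB8, PSMB9 and PSMB10 are lower with shPAX8 than with sgNTC18 in both lines and start lower in OS-LM1, whereas PSMB7 overlaps between the 3 OS-LM1 groups.

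The balance within each pair was described, without a test, by the ratio of TPM values in a library. In 786-M1A with sgNTC18, PSMB8 stood at 1.49 ± 0.0551 times PSMB5, PSMB9 at 0.741 ± 0.0338 times PSMB6 and PSMB10 at 0.240 ± 0.0504 times PSMB7. With shPAX8-1 and shPAX8-2 the ratios were 0.661 ± 0.0931 and 0.734 ± 0.0306 for PSMB8 to PSMB5, 0.418 ± 0.0859 and 0.521 ± 0.0486 for PSMB9 to PSMB6, and 0.0944 ± 0.0228 and 0.124 ± 0.0173 for PSMB10 to PSMB7. None of these shPAX8 libraries reached the lowest sgNTC18 ratio. The mean ratios with sgNTC18 were lower in OS-LM1, at 0.576 ± 0.0355, 0.214 ± 0.0132 and 0.151 ± 0.0128, in the same order. The PSMB8 to PSMB5 ratio was 0.546 ± 0.0886 with shPAX8-1 and 0.456 ± 0.0596 with shPAX8-2, and the range with shPAX8-1, 0.476 to 0.675, overlapped that with sgNTC18, 0.525 to 0.605. The PSMB9 to PSMB6 ratio, 0.160 ± 0.0189 and 0.148 ± 0.0134, stayed below sgNTC18 in every library. The PSMB10 to PSMB7 ratio was at most 0.0632 in any OS-LM1 shPAX8 library and at least 0.140 with sgNTC18. Within the cap, PSME2 stood at 0.695 ± 0.0140 times PSME1 in 786-M1A with sgNTC18 and at 0.454 ± 0.0812 and 0.323 ± 0.0449 with shPAX8-1 and shPAX8-2. The same ratio in OS-LM1 was 0.671 ± 0.0423, 0.652 ± 0.0717 and 0.569 ± 0.0131, and the groups with sgNTC18 and shPAX8-1 overlapped.

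**Figure D2:**
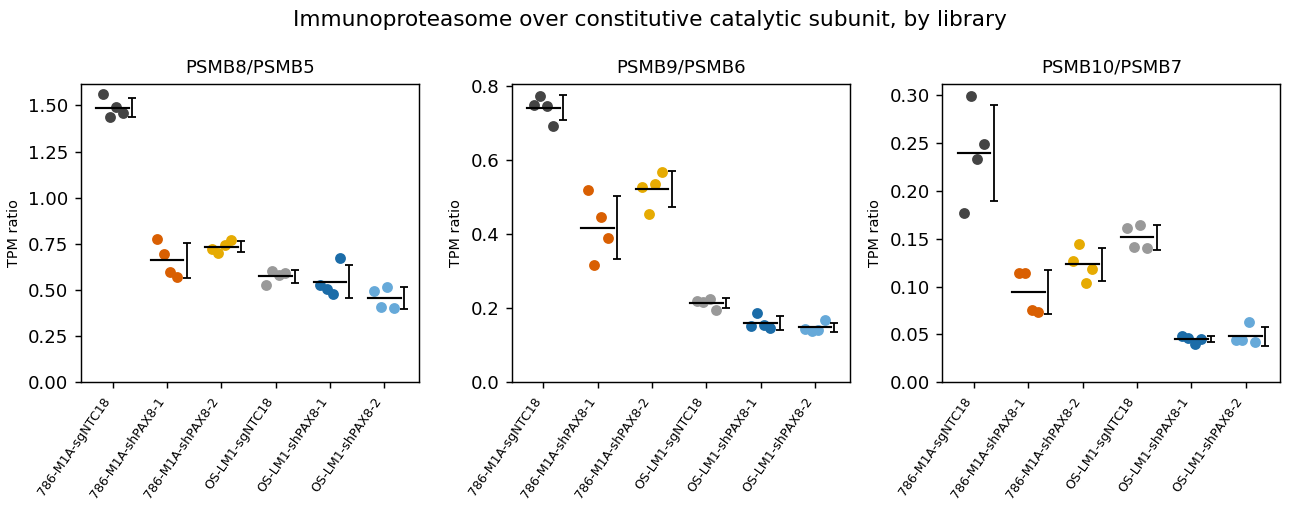
TPM ratio of each immunoproteasome catalytic gene to the gene it replaces, per library, by line and construct, on linear axes from 0; horizontal lines are means and bars SD (n = 4). The 3 catalytic ratios are highest in 786-M1A with sgNTC18, and in OS-LM1 the PSMB8/PSMB5 ratio with shPAX8-1 overlaps that with sgNTC18.

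Over all members, most proteasome genes were lower with shPAX8-1 than with sgNTC18 in 786-M1A. Of the 41 constitutive genes 28 fell and 4 rose, with a median log2 fold change of -0.80, and all 5 immunoproteasome genes fell, with a median of -1.96. Over all 14452 genes tested, 34.5% were called lower and 36.1% higher, with a median of 0.03. The 3 most negative of the constitutive genes were PSMC3, a 19S ATPase, at -2.34 (0.12, edgeR adjusted p = 6.0e-10), PSME3, which forms the nuclear PA28 gamma cap, at -2.26 (0.12, edgeR adjusted p = 6.6e-10), and PSMD13 of the 19S lid at -1.84 (0.10, edgeR adjusted p = 8.5e-10). PSMC3 went from 142, 146, 151 and 139 CPM to 31.1, 32.7, 23.8 and 24.5 CPM. PSME3 went from 225, 222, 241 and 218 CPM to 41.0, 56.0, 44.8 and 44.5 CPM. Neither gene's groups overlapped. PSMD12 of the lid rose by 1.07 (0.22, edgeR adjusted p = 5.0e-04), PSME4, the PA200 activator, by 0.71 (0.13, edgeR adjusted p = 1.7e-04) and PSMD10, the assembly chaperone gankyrin, by 0.68 (0.22, edgeR adjusted p = 0.012) on the log2 scale. PSMD12 was at 21.7, 15.8, 20.6 and 20.2 CPM with sgNTC18 and 24.9, 31.4, 50.1 and 55.7 CPM with shPAX8-1, with libraries 3 and 4 the highest. PSMD10 was at 45.8, 37.6, 35.6 and 43.3 CPM and 40.2, 51.7, 80.7 and 84.6 CPM, so that shPAX8-1 library 1 lay within the sgNTC18 range. The size of these rises depended on the processing. With the GC trend removed, PSMD12 was at 0.481, PSME4 at 0.352 and PSMD10 at 0.21, with GC and length trends removed at 0.62, 0.163 and 0.332, and without libraries 3 and 4 at 0.517, 0.43 and 0.175. Without libraries 1 and 2 PSMD10 was at 1.039. PSMD12 and PSME4 stayed called in each of these, and the call of PSMD10 was lost under 3 of 18 alternatives (adjusted p from 2.3e-05 to 0.42). Constitutive genes were 27 lower and 7 higher without libraries 1 and 2, and 33 lower and 2 higher without libraries 3 and 4.

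With shPAX8-2 in 786-M1A, 36 of the 41 constitutive genes and all 5 immunoproteasome genes fell and 0 rose, against 30.9% of all genes lower and 31.5% higher. The median was -1.01 for the constitutive and -2.08 for the immunoproteasome genes. PSME3 was at 44.9, 43.7, 53.1 and 57.3 CPM, a log2 fold change of -2.17 (0.12, edgeR adjusted p = 2.1e-09). PSMC3 was at -1.95 (0.12, edgeR adjusted p = 6.3e-09) and PSMD11, a lid subunit, at -1.70 (0.09, edgeR adjusted p = 1.1e-09). All 7 alpha ring genes were called lower, with a median of -1.04, whereas with shPAX8-1 2 of 7 were, with a median of -0.18, beside 34.5% of all genes. The libraries of both constructs were split at these genes. PSMA5 was at 172 and 195 CPM in shPAX8-1 libraries 1 and 2 and at 224 and 246 CPM in libraries 3 and 4. With shPAX8-2 it was at 109 and 109 CPM and at 142 and 151 CPM. Libraries 3 and 4 were the higher pair with either construct at every alpha ring gene but PSMA7. PSMA7 was at 199, 192, 132 and 151 CPM with shPAX8-1 and at 156, 162, 145 and 209 CPM with shPAX8-2. GC content was 55.5% in PSMA7 and 36.7% to 46.2% in the others. The part of the split or of GC content in this contrast was not tested.

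In OS-LM1 the constitutive genes moved in both directions. With shPAX8-1, 21 of 41 fell and 9 rose, with a median of -0.25, against 35.8% lower and 35.6% higher over all 15049 genes tested. With shPAX8-2, 23 fell and 7 rose, with a median of -0.31, against 34.1% and 34.3%. The 5 immunoproteasome genes fell with both constructs, with medians of -0.86 and -0.91. PSMD13 was lower at -1.25 (0.09, edgeR adjusted p = 3.3e-10) and -0.91 (0.09, edgeR adjusted p = 3.4e-08). PSMD3 of the lid was at -0.92 (0.09) and PSMC4, a 19S ATPase, at -0.91 (0.08) with shPAX8-1, and PSMD2 of the 19S base at -0.94 (0.10) and PSMC4 at -0.93 (0.08) with shPAX8-2.

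Genes that rose in OS-LM1 included PSME4, PSMD5 and PSMD14. PSME4 was at 92.8, 97.9, 106 and 106 CPM with sgNTC18, at 166, 176, 164 and 159 CPM with shPAX8-1 and at 210, 237, 197 and 204 CPM with shPAX8-2. These 3 groups did not overlap, and the log2 fold changes were 0.70 (0.08, edgeR adjusted p = 4.8e-07) and 1.08 (0.09, edgeR adjusted p = 1.4e-09). PSMD5, a chaperone of 19S assembly, was at 0.69 (0.09) and 0.66 (0.09), and PSMD14, the deubiquitinase of the lid, at 0.73 (0.10) and 0.58 (0.10). After removal of the GC trend in every library, PSMD14 was at 0.146 and 0.120 and not called, with adjusted p from 3.4e-11 to 0.066 and from 4.1e-07 to 0.13 over the alternatives. The same correction left PSME4 called at 0.445 with shPAX8-1 and PSMD5 at 0.381 and 0.414. With GC and length trends removed, PSME4 was at 0.32 and 0.694, PSMD5 at 0.426 and 0.438 and PSMD14 at 0.227 and 0.296, all called. Removal of the GC trend gave 24 constitutive genes lower and 6 higher with shPAX8-1.

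Set side by side over the 4 comparisons, which share their sgNTC18 libraries within a line, 18 of the 41 constitutive genes and the 5 immunoproteasome genes were called lower in each, against 14.6% of the 13737 genes tested in both lines. The 4 constitutive genes called lower in none were PSMC6, PSMD12, PSMD5 and PSME4. The counts by sub-complex that follow stand beside the 34.5%, 30.9%, 35.8% and 34.1% of all genes called lower in the 4 comparisons. The 19S base without ATPase activity (PSMD1, PSMD2 and PSMD4) had 3 of 3 genes lower with either construct in 786-M1A and 2 of 3 in OS-LM1. Of the 20S assembly chaperones PSMG1 to PSMG4, 3 and 4 were lower with shPAX8-1 and shPAX8-2 in 786-M1A and 3 in either OS-LM1 comparison. Median log2 fold changes of the 6 ATPases were -0.97 and -1.38 in 786-M1A and -0.18 and -0.26 in OS-LM1, and those of the 8 lid genes -0.39, -0.89, -0.53 and -0.49.

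**Figure D3:**
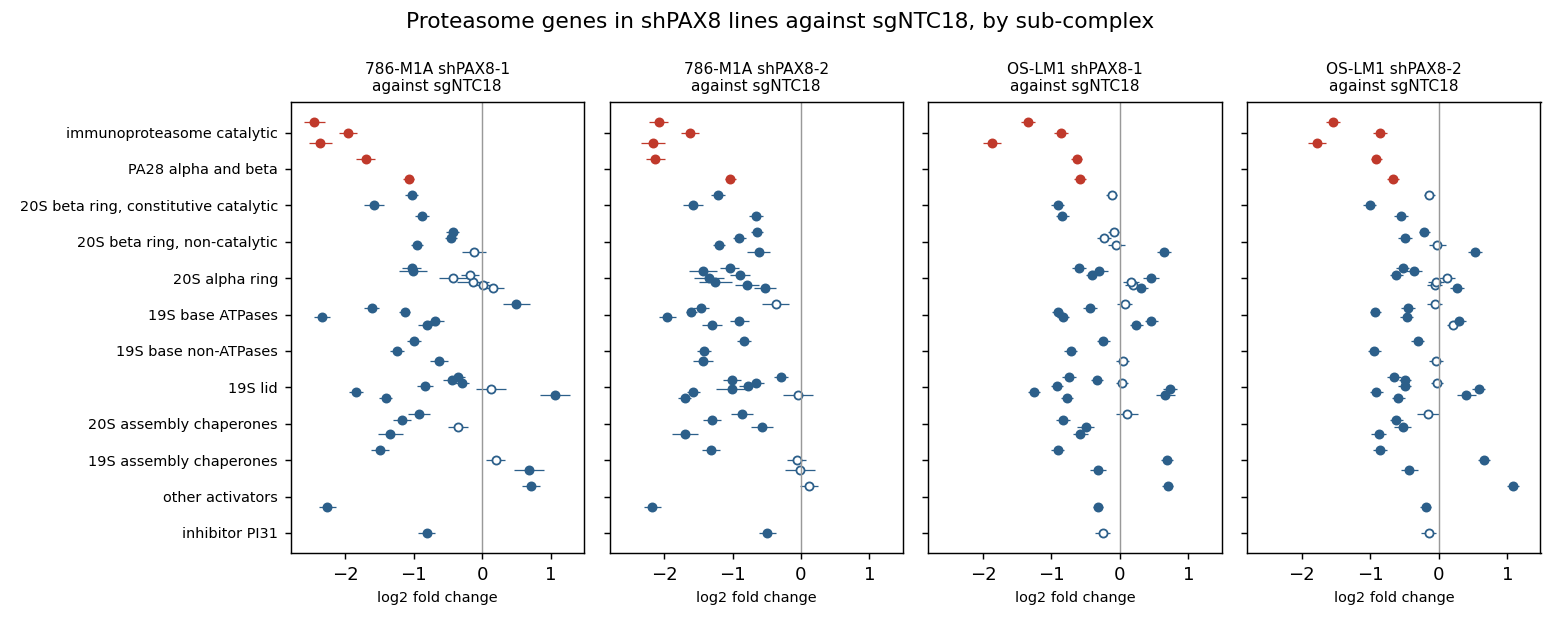
Log2 fold change of 46 proteasome genes against sgNTC18, by sub-complex, for each line and construct; red marks immunoproteasome genes, blue constitutive genes, bars the standard error, and filled points an adjusted p under 0.05. The 5 immunoproteasome genes lie below 0 in all 4 panels, and 18 of the 41 constitutive genes are also called lower in all 4. Constitutive genes lie on both sides of 0 in OS-LM1 and in 786-M1A with shPAX8-1. With shPAX8-2 in 786-M1A, PSME4 alone lies above 0, at 0.12.

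GC content moved with these fold changes. Across the 46 members the rank correlation of log2 fold change with GC content was -0.655 and -0.364 with shPAX8-1 and shPAX8-2 in 786-M1A and -0.651 and -0.605 in OS-LM1, and across all genes -0.363, -0.098, -0.321 and -0.275. These describe genes of the same libraries and carry no test. With each library's GC trend removed, constitutive genes in 786-M1A were 34 lower and 2 higher with shPAX8-1 and 37 lower and 0 higher with shPAX8-2. The shares of all genes called after this correction are not given here, so these counts are a description only. All 5 immunoproteasome genes remained lower in the 4 comparisons.

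Partners and regulators of the proteasome were called in both directions. Of 20 tested, 6 were lower and 7 higher with shPAX8-1 and 10 lower and 5 higher with shPAX8-2 in 786-M1A, and in OS-LM1 9 lower and 8 higher and 7 lower and 8 higher. The shares of all genes called lower and higher were 34.5% and 36.1%, 30.9% and 31.5%, 35.8% and 35.6%, and 34.1% and 34.3% in these 4 comparisons. NFE2L1, the transcription factor that raises proteasome genes when the proteasome is inhibited, was at -0.12 (0.11, edgeR adjusted p = 0.32) and -0.16 (0.11, edgeR adjusted p = 0.21) in 786-M1A and at -0.35 (0.10, edgeR adjusted p = 0.0039) and -0.27 (0.10, edgeR adjusted p = 0.024) in OS-LM1. POMP, the chaperone of 20S maturation, was at 0.19 (0.28, edgeR adjusted p = 0.56) and -0.99 (0.29, edgeR adjusted p = 0.0075) in 786-M1A and rose in OS-LM1 by 0.86 (0.15) and 0.60 (0.15). In 786-M1A its libraries were at 17.9, 21.6, 43.6 and 46.3 CPM with shPAX8-1 and at 10.3, 10.5, 18.5 and 18.4 CPM with shPAX8-2.

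Interferon-linked genes moved with the immunoproteasome genes in 786-M1A. Of 16 listed, 15 were lower with shPAX8-1 and 15 with shPAX8-2 in 786-M1A, with medians of -3.18 and -3.99. Their summed level was 2990 to 3150 CPM with sgNTC18, 291 to 323 CPM with shPAX8-1 and 334 to 355 CPM with shPAX8-2. In OS-LM1, 5 were lower and 4 higher with shPAX8-1 and 11 lower and 2 higher with shPAX8-2, and the summed level was 764 to 852, 748 to 756 and 693 to 720 CPM. Of all genes, 34.5% and 30.9% were lower in the 786-M1A comparisons, and in those of OS-LM1 35.8% and 34.1% were lower and 35.6% and 34.3% higher. IRF1, a factor that activates immunoproteasome promoters, was at -0.73 (0.16, edgeR adjusted p = 9.1e-04) and -0.56 (0.16, edgeR adjusted p = 0.0076) in 786-M1A and at -0.12 (0.10, edgeR adjusted p = 0.29) and -0.44 (0.10, edgeR adjusted p = 9.9e-04) in OS-LM1. The part of the interferon-linked genes in the change of the immunoproteasome genes was not tested.

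MHC class I genes, whose products present the peptides, were called in both directions. Of 14 listed, 10 fell and 3 rose with shPAX8-1 and 10 and 2 with shPAX8-2 in 786-M1A, and 11 and 2 and 10 and 2 in OS-LM1. Of all genes in these comparisons, 34.5%, 30.9%, 35.8% and 34.1% were called lower and 36.1%, 31.5%, 35.6% and 34.3% higher. TAP1 was at -1.84 (0.13) and -1.61 (0.13) in 786-M1A and at -0.91 (0.11) and -0.43 (0.11) in OS-LM1. NLRC5, the transactivator of MHC class I genes, was at -2.81 (0.21) and -1.50 (0.20) in 786-M1A, and at -0.92 (0.14) and -0.22 (0.14, edgeR adjusted p = 0.16) in OS-LM1.

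Whether the lines responded differently was tested as the fold change in OS-LM1 minus that in 786-M1A, both constructs together. The difference was positive, that is, the fold change less negative or more positive in OS-LM1, for all 5 immunoproteasome genes and 33 of 41 constitutive genes, and negative for 2, against 29.9% and 28.8% of all 15665 genes tested. It was 0.96 (0.14, edgeR adjusted p = 1.8e-06) for PSMB8, 0.86 (0.14, edgeR adjusted p = 1.4e-05) for PSMB9, 0.46 (0.18, edgeR adjusted p = 0.036) for PSMB10, 0.46 (0.11, edgeR adjusted p = 7.2e-04) for PSME1 and 1.18 (0.14, edgeR adjusted p = 7.1e-08) for PSME2. With 786-M1A shPAX8-1 libraries 1 and 2, or 3 and 4, left out it was 1.059 or 0.814 for PSMB8, 0.85 or 0.789 for PSMB9, 0.575 or 0.29 for PSMB10, 0.434 or 0.406 for PSME1 and 1.056 or 1.233 for PSME2. The call of PSMB10 was lost under 12 of 33 alternatives (adjusted p from 2.0e-04 to 0.14), among them leaving out 786-M1A sgNTC18 library 2 or 4, shPAX8-1 library 3 or 4 or shPAX8-2 library 1 or 3, or OS-LM1 sgNTC18 library 2 or 4, shPAX8-1 library 2 or shPAX8-2 library 3, with values of 0.360 to 0.447 for these. Among the other members the 3 highest differences were 1.99 (0.12) for PSME3, 1.52 (0.13) for PSMC3 and 1.31 (0.15) for PSMC1, a 19S ATPase. PSMB7 differed by 1.02 (0.11, edgeR adjusted p = 6.0e-09) and PSMB6 by 0.66 (0.14, edgeR adjusted p = 3.3e-04), and PSMB5 did not pass, at 0.11 (0.12, edgeR adjusted p = 0.47). PSMD10 and the lid subunit PSMD8 differed the other way, at -0.68 (0.23) and -0.34 (0.12), the latter not called without 786-M1A sgNTC18 library 1 (-0.303, adjusted p = 0.05, and from 0.0015 to 0.05 over all alternatives). Without 786-M1A shPAX8-1 libraries 1 and 2, 31 constitutive genes were positive and 2 negative, and without libraries 3 and 4, where 4 of 5 immunoproteasome genes were positive, 32 and 2. PAX8 itself differed by 1.87 (0.17), so the extent of PAX8 depletion and the line cannot be told apart.

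Between the lines with sgNTC18, the catalytic immunoproteasome genes were lower in OS-LM1 and the PA28 genes did not pass. The log2 fold change of OS-LM1 against 786-M1A was -1.17 (0.11, edgeR adjusted p = 1.3e-09) for PSMB8, -1.48 (0.12, edgeR adjusted p = 1.6e-11) for PSMB9 and -1.33 (0.15, edgeR adjusted p = 1.3e-08) for PSMB10, and 0.01 (0.09, edgeR adjusted p = 0.9) for PSME1 and -0.04 (0.11, edgeR adjusted p = 0.78) for PSME2. Of the constitutive genes, 20 were higher and 8 lower in OS-LM1, against 32.0% and 31.0% of all genes, and 19 and 12 with the GC trend removed. Their median was 0.19. PSMB7 was lower, at -0.69 (0.09, edgeR adjusted p = 1.0e-07), PSMB6 higher at 0.31 (0.12, edgeR adjusted p = 0.021) and PSMB5 higher at 0.23 (0.10, edgeR adjusted p = 0.042). The call of PSMB5 was lost under 11 of 15 alternatives (adjusted p from 0.0075 to 0.12), among them leaving out any sgNTC18 library but library 2 of OS-LM1, with values of 0.192 to 0.249. The 3 highest were PSMD12 at 0.92 (0.19), PSMC6 at 0.89 (0.17) and PSMC4 at 0.89 (0.08), and the most negative of the other members PSMA7 at -0.61 (0.13), PSMD1 at -0.61 (0.12) and PSMD5 at -0.55 (0.12). Of the interferon-linked genes, 15 of 16 were lower in OS-LM1, against 31.0% of all genes. PAX8 was at -0.39 (0.14, edgeR adjusted p = 0.015), a call lost without 786-M1A sgNTC18 library 2 (-0.316), with the GC trend (-0.183) or GC and length trends removed (-0.16) and under 4 of 15 alternatives (adjusted p from 0.0082 to 0.09) in all.

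With shPAX8, both constructs together, 34 constitutive genes were higher in OS-LM1 than in 786-M1A and 0 lower, against 41.7% and 41.5% of all genes, with a median of 0.86. With the GC trend removed they were 35 and 4, and without 786-M1A shPAX8-1 libraries 1 and 2, or 3 and 4, 35 and 1, or 36 and 1. PSME3 was at 272, 266, 253 and 266 CPM and 261, 280, 285 and 306 CPM in OS-LM1 with shPAX8-1 and shPAX8-2, above all its 786-M1A shPAX8 levels, a log2 fold change of 2.51 (0.07, edgeR adjusted p = 2.1e-21). With the GC trend removed 2 immunoproteasome genes were higher and 2 lower, against 2 and 3. PSMA4 was at 1.95 (0.13) and PSMB1, a beta ring subunit, at 1.74 (0.11). Of the constitutive catalytic genes, PSMB5 was at 0.34 (0.07), PSMB6 at 0.96 (0.09) and PSMB7 at 0.33 (0.06). The immunoproteasome genes divided: PSMB9 and PSMB10 were lower in OS-LM1, at -0.62 (0.09) and -0.87 (0.11), and PSME1 and PSME2 higher, at 0.47 (0.06) and 1.14 (0.08). After removal of the GC trend, or of GC and length trends, PSMB10 was at -0.384 and -0.452, both called. Without 786-M1A shPAX8-1 libraries 1 and 2, or 3 and 4, PSMB9 was at -0.608 or -0.67, PSMB10 was at -0.733 or -1.018, PSME1 was at 0.468 or 0.44 and PSME2 at 1.037 or 1.214, all called. PSMB8 was at -0.20 (0.08, edgeR adjusted p = 0.026), and at -0.072 with the GC trend and -0.122 with GC and length trends removed, -0.088 without libraries 1 and 2 and -0.334 without libraries 3 and 4 of that group, only the last of these 4 called. Its call was lost under 11 of 25 alternatives (adjusted p from 2.7e-04 to 0.3), among them leaving out OS-LM1 shPAX8-1 library 1 or shPAX8-2 library 2 or 4, or 786-M1A shPAX8-1 library 1 or 2 or shPAX8-2 library 4, with values of -0.183 to -0.154.

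The comparison of shPAX8-1 with shPAX8-2 holds the kind of construct constant. In 786-M1A, where PAX8 was lower with shPAX8-1 at -1.18 (0.15), 19 constitutive genes were higher and 3 lower with shPAX8-1, against 24.2% and 22.9% of all genes, with a median of 0.26. PSMD14, PSMA3, an alpha ring subunit, and PSMD12 were highest, at 1.14 (0.23), 1.12 (0.24) and 1.11 (0.22). PSMC3, PSMF1 and PSMD13 were lower, at -0.40 (0.12), -0.32 (0.12) and -0.27 (0.10), calls lost under 4 of 18 alternatives (adjusted p from 1.7e-04 to 0.45), 8 of 18 alternatives (adjusted p from 0.001 to 0.38) and 8 of 18 alternatives (adjusted p from 0.0026 to 0.11), respectively. Of the immunoproteasome genes, PSMB8 was at -0.34 (0.13, edgeR adjusted p = 0.042), PSMB9 at -0.38 (0.15, edgeR adjusted p = 0.047) and PSME2 at 0.44 (0.14, edgeR adjusted p = 0.019). These calls were lost under 9 of 18 alternatives (adjusted p from 2.8e-04 to 0.48), 10 of 18 alternatives (adjusted p from 6.6e-04 to 0.2) and 6 of 18 alternatives (adjusted p from 9.9e-04 to 0.23), each of them without shPAX8-1 library 3 or library 4, with values of -0.263 and -0.260, -0.361 and -0.352, and 0.397 and 0.358. Without shPAX8-2 library 4, PSMB8 was at -0.258 and PSMB9 at -0.196. Calls were also lost without shPAX8-2 library 1 or 2 for PSMB8 (-0.375 and -0.373) and PSME2 (0.351 and 0.368), and without shPAX8-2 library 3 or shPAX8-1 library 2 for PSMB9 (-0.387 and -0.374). The call of PSMF1 was lost without shPAX8-2 library 1, 2 or 4 or shPAX8-1 library 3 or 4 (-0.326 to -0.250), and that of PSMD13 without shPAX8-2 library 3 or 4 or shPAX8-1 library 2 or 3 (-0.275 to -0.199). PSMB10 at -0.20 (0.17, edgeR adjusted p = 0.34), PSME1 at -0.04 (0.08, edgeR adjusted p = 0.69), PSMB5 at -0.22 (0.10, edgeR adjusted p = 0.076), PSMB6 at -0.01 (0.15, edgeR adjusted p = 0.97) and PSMB7 at 0.18 (0.10, edgeR adjusted p = 0.14) did not pass. Under some alternatives 3 of these were called. PSMB10 was lower without shPAX8-1 libraries 1 and 2 (-0.517, edgeR adjusted p = 0.015) and higher with the GC trend removed (0.277, edgeR adjusted p = 0.025). PSMB5 was lower without libraries 1 and 2 (-0.306, edgeR adjusted p = 0.024), with the DESeq2 test (-0.213) and with GC and length trends removed (-0.192). PSMB7 was higher with the GC trend removed (0.229) and without shPAX8-2 library 4 (0.273).

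That comparison also moved with the shPAX8-1 pairs and with GC content. Without shPAX8-1 libraries 3 and 4, 9 constitutive genes were higher and 0 lower, with PSMB8, PSMB9 and PSME2 at -0.122, -0.322 and 0.243 (edgeR adjusted p = 0.48, 0.2 and 0.23). Without either pair, 1 and 2 or 3 and 4, PSME1 was at -0.071 or -0.022, and PSMB10 was at 0.046 without libraries 3 and 4, none of them called. Without libraries 1 and 2, PSMB8, PSMB9 and PSME2 were at -0.606, -0.436 and 0.606, and the constitutive genes were 24 and 6. PSMD14, PSMA3 and PSMD12 stayed called but were at 0.668, 0.617 and 0.595 without libraries 3 and 4, at 0.47, 0.591 and 0.607 with the GC trend removed and at 0.413, 0.441 and 0.562 with GC and length trends removed. PSMC3 was at -0.622 and PSMF1 at -0.522 without libraries 1 and 2, both called, and at -0.211 and -0.152 without libraries 3 and 4, neither called. PSMD13 lost its call without either pair, at -0.236 and -0.302. PSMC3 was not called with the GC trend (-0.091) or GC and length trends removed (-0.143). PSMB8 was at -0.133 and not called with the GC trend removed, and PSMB9 at -0.565 and called with GC and length trends removed. The rank correlation with GC content was -0.693 across the members and -0.557 across all genes. With the GC trend removed 2 immunoproteasome genes were higher and 1 lower, against 1 and 2, and with GC and length trends removed the constitutive genes were 18 higher and 6 lower.

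In OS-LM1 the constructs differed at few members. PAX8 was at -0.05 (0.12, edgeR adjusted p = 0.8), and 5 of 41 constitutive genes were lower with shPAX8-1 and 0 higher, against 16.7% of all genes lower and 12.4% higher. PSMD3 was lower at -0.42 (0.09), PSME4 at -0.38 (0.08) and PSMC3 at -0.36 (0.09). PSME2 was at 0.28 (0.08, edgeR adjusted p = 0.018), a call lost under 5 of 16 alternatives (adjusted p from 0.0036 to 0.067), among them leaving out shPAX8-2 library 1 (0.242) or shPAX8-1 library 4 (0.261), or removing GC and length trends (0.163). PSMB5 was at -0.29 (0.11, edgeR adjusted p = 0.043), a call lost under 12 of 16 alternatives (adjusted p from 0.0098 to 0.16), among them leaving out any library of either construct but shPAX8-1 library 2, with values of -0.315 to -0.221. PSMB8 at 0.00 (0.10, edgeR adjusted p = 0.99), PSMB9 at 0.20 (0.11, edgeR adjusted p = 0.18), PSMB10 at -0.09 (0.14, edgeR adjusted p = 0.66), PSME1 at 0.09 (0.09, edgeR adjusted p = 0.5), PSMB6 at 0.10 (0.09, edgeR adjusted p = 0.43) and PSMB7 at 0.02 (0.08, edgeR adjusted p = 0.88) did not pass. All members together were 1 higher and 5 lower, and 5 and 6 with the GC trend removed and 3 and 4 with DESeq2's size factors.

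The difference between the constructs was set against the line by subtracting the 786-M1A from the OS-LM1 value. It was negative for 10 constitutive genes and positive for 0, and positive for PSMB9, against 14.5% of all genes negative and 12.7% positive. PSMD14 was at -0.96 (0.26), PSME4 at -0.94 (0.15) and PSMA3 at -0.89 (0.28, edgeR adjusted p = 0.02), and PSMB9 at 0.61 (0.18, edgeR adjusted p = 0.012). Without 786-M1A shPAX8-1 libraries 3 and 4 PSMD14, PSMA3 and PSMB9 were at -0.486, -0.395 and 0.551 and not called (highest adjusted p over all alternatives 0.12, 0.31 and 0.056). PSMA3 was also lost without 786-M1A shPAX8-1 library 3 or 4 or shPAX8-2 library 2, at -0.737, -0.742 and -0.758. After removal of the GC trend, or of GC and length trends, PSMD14 was at -0.435 and -0.475 and PSMA3 at -0.464 and -0.474, all called. PSMB8 at 0.37 (0.17, edgeR adjusted p = 0.096), PSMB10 at 0.14 (0.23, edgeR adjusted p = 0.69), PSME1 at 0.17 (0.13, edgeR adjusted p = 0.34), PSME2 at -0.13 (0.16, edgeR adjusted p = 0.6), PSMB5 at -0.04 (0.14, edgeR adjusted p = 0.86), PSMB6 at 0.14 (0.17, edgeR adjusted p = 0.59) and PSMB7 at -0.13 (0.12, edgeR adjusted p = 0.45) did not pass. PSMB8 was called without 786-M1A shPAX8-1 libraries 1 and 2 (0.646, edgeR adjusted p = 0.0016), without 786-M1A shPAX8-1 library 1 (0.465) and without OS-LM1 shPAX8-2 library 3 (0.447). With either pair left out, 1 and 2 or 3 and 4, PSMB9 was at 0.673 or 0.551, PSMB10 at 0.459 or -0.11, PSME1 at 0.201 or 0.145 and PSME2 at -0.29 or 0.063, and PSMB8 was at 0.154 without libraries 3 and 4. PAX8 was at 1.16 (0.20). Without shPAX8-1 libraries 1 and 2 the constitutive genes were 19 negative and 3 positive, and without libraries 3 and 4 5 and 0.

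**Figure D4:**
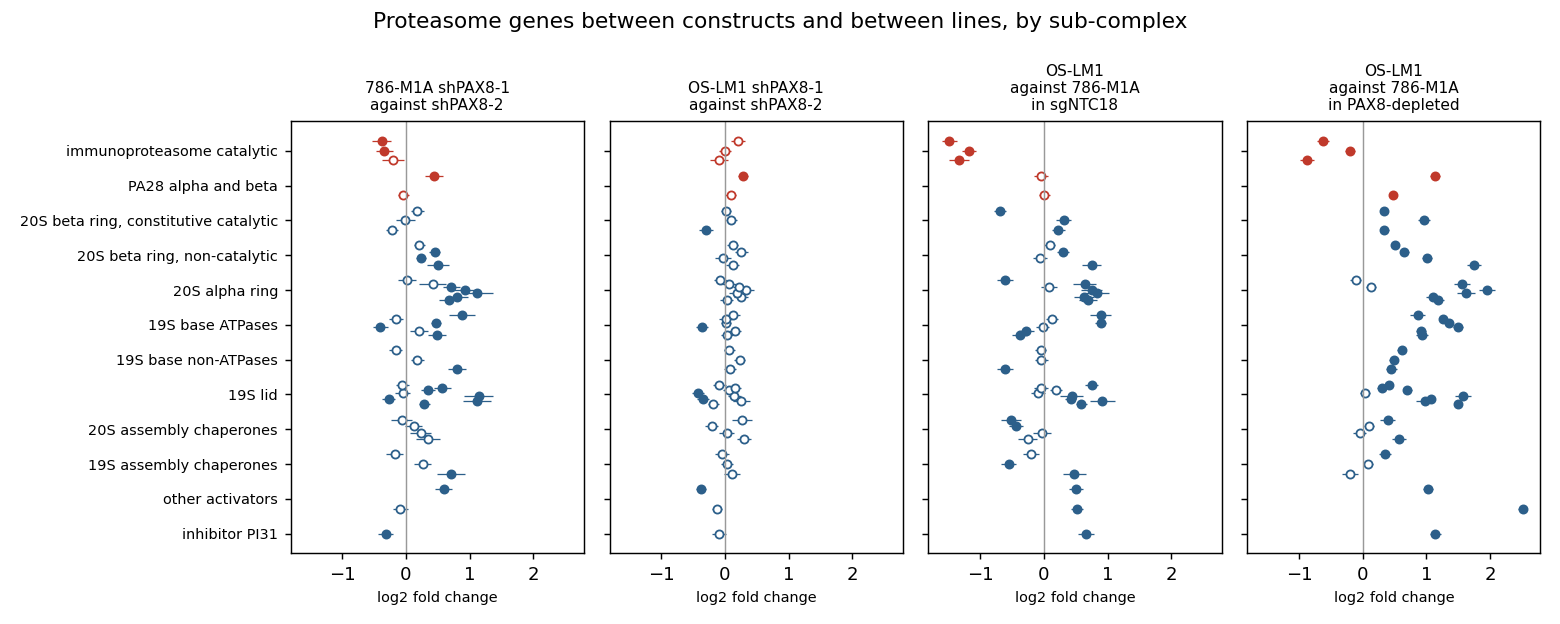
Log2 fold change of 46 proteasome genes between constructs within each line and between the lines with sgNTC18 and with shPAX8, by sub-complex; red marks immunoproteasome genes, blue constitutive genes, bars the standard error, and filled points an adjusted p under 0.05. The 3 immunoproteasome catalytic genes lie below 0 in both panels between the lines, and PSME3 lies farthest to the right with shPAX8, at 2.51.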

How the data were processed

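Whole-cell RNA of 786-M1A and OS-LM1 with sgNTC18, shPAX8-1 or shPAX8-2 was sequenced, 4 libraries per group. The submitters' processing notes name RSEM, Bowtie2 and hg38; the RSEM version and annotation release are not given in the sources used here. The labels give a KAPA kit for the libraries and the study's methods give Lexogen kits. The deposited tables hold RSEM expected counts and TPM per gene symbol, as the authors' mapping made them. Libraries held 11.6 to 52.1 × 1e6 counts.

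Expected counts were rounded, filtered with filterByExpr, scaled by TMM and tested with edgeR 4.0.16 (robust quasi-likelihood, R 4.3.3), with Benjamini-Hochberg adjustment over all genes tested. Comparisons within a line used its 12 libraries and all others the 24 libraries. A call is an adjusted p under 0.05. The procedure was tested on simulated data. No libraries agreed within sampling noise (chi-square per gene 3.74 or more).

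The members, gene lists and motifs were chosen with earlier results of these data known. Values are given for PAX8, the 5 immunoproteasome genes, PSMB5, PSMB6 and PSMB7, in each comparison for the 3 other members with the highest and the 3 with the most negative log2 fold change among those called, and for NFE2L1, POMP, IRF1, NLRC5 and TAP1. A further gene of that rule is not reported here. Values per library of other genes, and the markers named, were added after values had been seen. GC content is that of the longest GENCODE transcript of each symbol. Promoters and gene positions are from RefSeq (GRCh38.p14). PSMB1, PSMB6, PSMB7, PSMA7, PSMD4 and PSMG3 were not matched to a promoter, nor ECPAS and SEM1 of the partners to a symbol in the files. Alternatives were no low-count filter, the DESeq2 1.42.0 test and its size factors, GC trends removed, a replicate block, single libraries or pairs of 786-M1A shPAX8-1 libraries left out, stricter thresholds, 1 fit over all libraries and, chosen after seeing the data, GC and length trends removed together.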

Additional observations from a re-analysis of the deposited data

Results flagged for a closer look

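Within the 54 groups of 4 libraries checked (9 genes in 6 groups), 2 libraries stood far from the others of their group. Chance alone gives about 1 in 20, or about 2.7 in 54 groups, so 2 is no more than chance gives. PSMB8 was at 37.9 CPM in 786-M1A shPAX8-2 library 4 against 30.5 to 30.6 CPM in the other 3. PSMB6 was at 64.0 CPM in 786-M1A sgNTC18 library 4 against 60.0 to 60.6 CPM in the others.

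Fold changes against sgNTC18 differed between the lines by the edgeR test of the difference (OS-LM1 minus 786-M1A, log2 scale) for PAX8 (1.87), PSMB8 (0.96), PSMB9 (0.86), PSMB10 (0.46), PSME1 (0.46), PSME2 (1.18), PSMB6 (0.66), PSMB7 (1.02), PSME3 (1.99), PSMC3 (1.52), PSMC1 (1.31), PSMD10 (-0.68) and PSMD8 (-0.34). The difference between shPAX8-1 and shPAX8-2 differed between the lines for PAX8 (1.16), PSMB9 (0.61), PSMD14 (-0.96), PSME4 (-0.94) and PSMA3 (-0.89).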

How the results depend on the processing

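Of the 113 fold changes of named genes that passed the test, 0 changed sign under any alternative and 22 lost their call under at least 1, 11 of them in the comparisons between constructs. The count of members called moved by more than 1.5 times as follows. With an absolute log2 fold change over 0.58 it was 21 against 35 for OS-LM1 shPAX8-1 and 18 against 35 for OS-LM1 shPAX8-2 against sgNTC18, 11 against 25 and 0 against 6 between the constructs in 786-M1A and OS-LM1, 18 against 31 between the lines with sgNTC18 and 24 against 40 for the difference in depletion between the lines. At an adjusted p under 0.01 it was 13 between the constructs in 786-M1A and 5 against 11 for the difference between constructs across lines. Between the constructs in OS-LM1 it was 10 with the DESeq2 test and 11 with the GC trend removed. Without 786-M1A shPAX8-1 libraries 3 and 4 it was 9 between the constructs in 786-M1A and 5 across lines, and without libraries 1 and 2 it was 24 across lines. With a single library left out it ran from 4 to 11 between the constructs in OS-LM1 (11 without shPAX8-1 replicate 2 or shPAX8-2 replicate 2) and from 6 to 17 across lines (17, 7 and 6 without 786-M1A shPAX8-1 replicates 1, 3 and 4, and 7 without shPAX8-2 replicate 2). The cause was not tested.

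Fold changes that did not pass the test changed sign as follows, 1 of them with a call, PSMB10 between the constructs in 786-M1A with the GC trend removed (edgeR adjusted p = 0.025). With the GC trend removed, PSMB10, PSME1 and PSMB6 were at 0.277, 0.151 and 0.249 between the constructs in 786-M1A, PAX8 and PSMB10 at 0.051 and 0.064 between those in OS-LM1, and PSMB10 and PSMB6 at -0.19 and -0.044 across lines. With GC and length trends removed, an alternative chosen after seeing the data, these were at 0.151, 0.02 and 0.108, PAX8 at 0.114, and -0.192 and -0.041, with PSMB7 at 0.094 in OS-LM1 shPAX8-2 against sgNTC18 and PSMB8 and PSMB7 at -0.069 and -0.12 between the constructs in OS-LM1. Without 786-M1A shPAX8-1 libraries 3 and 4, PSMB10 and PSMB6 were at 0.046 and 0.081 between the constructs and PSMB10 and PSME2 at -0.11 and 0.063 across lines, and without libraries 1 and 2 PSMB5 was at 0.051 across lines. With single libraries left out, values ran from -0.075 to 0.003 for PSME1 (786-M1A shPAX8-1 against shPAX8-2), from -0.149 to 0.117 for PSMB6 (786-M1A shPAX8-1 against shPAX8-2), from -0.136 to 0.087 for PAX8 (OS-LM1 shPAX8-1 against shPAX8-2), from -0.047 to 0.099 for PSMB8 (OS-LM1 shPAX8-1 against shPAX8-2), from -0.139 to 0.086 for PSMB10 (OS-LM1 shPAX8-1 against shPAX8-2), from -0.016 to 0.052 for PSME1 (OS-LM1 against 786-M1A in sgNTC18) and from -0.139 to 0.03 for PSMB5 (line by construct interaction).

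Same-numbered libraries were not taken as paired: 6 of 24 pairs correlated over 0.1, from -0.319 to 0.271, with a mean of 0.003 against -0.001 for other pairs. Of the 6, 3 were among the 4 pairs of shPAX8-1 and shPAX8-2 in 786-M1A (0.217, 0.154 and 0.271, the other at 0.037), where libraries of different numbers correlated up to 0.312. Between these 2 groups, libraries 1 and 2 correlated with each other at 0.064 to 0.306 and libraries 3 and 4 at 0.025 to 0.312. Libraries 1 and 2 of either group correlated with libraries 3 and 4 of the other at -0.365 to 0.024. A block for libraries 1 and 2 against 3 and 4 was not fitted. With the replicate number as a block, the members called were 39, 41, 33, 34, 24, 5, 30, 39, 40 and 11 in the 10 comparisons, against 37, 41, 35, 35, 25, 6, 31, 39, 40 and 11 without it, in the order shPAX8-1 and shPAX8-2 against sgNTC18 in 786-M1A and in OS-LM1, the constructs in 786-M1A and in OS-LM1, the lines with sgNTC18 and with shPAX8, and the differences across lines in depletion and in constructs. PSMB9 between the constructs in 786-M1A, and PSMB5 between the constructs in OS-LM1 and between the lines with sgNTC18, lost their calls under the block.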
